A study of Mus musculus with 20 samples.

Results

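The genes described here encode the enzymes, regulators and one carrier of cholesterol and fatty acid synthesis, listed as 34 symbols. Sc4mol is the older symbol of Msmo1, which left 33 genes. Acat2, which encodes a thiolase that condenses acetyl-CoA units, was not analysed here. The other 32 genes were each represented by their brightest probe set on average, out of 18194 genes represented in the same way.

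Levels came from 20 Affymetrix arrays for the mouse, 1 for the PCR-amplified cDNA of each of 20 cells of the inner cell mass of C57BL/6 blastocysts (embryonic day 3.5). This group of cells inside the blastocyst gives rise to the epiblast and the primitive endoderm. Of 55 cells picked, 50 were scored Oct4-positive and Cdx2-negative by PCR, and which of these became the 20 arrays, and from which embryos, is not given in the labels. All 20 cells form 1 group with no treatment named, and some may share an embryo. The p-values below ask whether a gene varied more over these cells than genes of similar mean level.

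Cells make fatty acids and cholesterol from the same cytosolic pool of acetyl-CoA. The mevalonate pathway builds isoprenoids and squalene, squalene is closed to lanosterol, and lanosterol is trimmed to cholesterol, while acetyl-CoA carboxylase and fatty acid synthase make saturated fatty acids that elongases and desaturases then modify. In mammalian cells both branches are regulated by the SREBP transcription factors, which the escort protein SCAP carries to the Golgi for cleavage when sterols are low and which INSIG proteins hold back in the endoplasmic reticulum when sterols are high.

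Levels are given as log2(intensity + 8.77) after quantile normalization, a scale whose lowest value is 3.29. Each array was given a floor, taken as the 95th percentile over 189 probe sets of unrelated-tissue, olfactory and vomeronasal receptor genes, and the 20 floors lay between 6.73 and 7.19. A value not above the floor is a bound and does not show that a transcript was absent. Levels of different probe sets are not set against each other, since probes differ in brightness.

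The labelled cell type was checked against its markers. Pou5f1, which encodes Oct4, was above the floor in 20 of 20 cells, between 9.65 and 11.58. Cdx2, the trophectoderm factor used in the PCR screen, was above the floor in 17 cells, with a median of 7.39 and a highest value of 8.26. Its SD over the cells was 0.35. Taken alone this goes against the label, but values so near the floors, between 6.73 and 7.19, do not settle it. Of 13 trophectoderm markers, 5 (Atp12a, Elf5, Gata3, Krt19 and Krt7) did not pass the floor in any cell. Hand1 was above it in all 20 cells, between 13.58 and 13.78, Tfap2c in 13 cells, Tead4 in 12, Eomes and Krt8 in 9 each, Lgals3 in 5 and Krt18 in 2. The mean of Hand1, 13.70, was the highest of all 18194 genes, and its SD over the cells was 0.08. Whether its probe set is specific to Hand1 was not tested. Without any of the lipid genes or markers, the cells divided into 10 and 10 cells. In the first 10, 7 of the 10 leading genes were primitive endoderm markers, among them Sox17, Gata4 and Pdgfra. In the other 10, only Fgf4 and Klf2 of the 10 leading genes were listed epiblast markers. These groups are called primitive endoderm-like (cells 3, 4, 5, 6, 8, 10, 11, 15, 17 and 20) and epiblast-like (cells 1, 2, 7, 9, 12, 13, 14, 16, 18 and 19). Of 22 listed primitive endoderm markers, 4 passed the floor in no cell and 14 in 3 or more. Of these 14, 12 were at least 2-fold higher on average in primitive endoderm-like cells, low values being raised to the floor. Hnf4a went the other way, at -0.94 (primitive endoderm-like minus epiblast-like, log2). Of 11 epiblast markers that passed the floor in 3 or more cells, 6 were at least 2-fold higher in epiblast-like cells. Cell 19 stood apart with the lowest median of the deposited intensities, which lay between 25.6 and 30.2 in the other cells. Primitive endoderm-like cells 4, 8, 17 and 20 had the lowest mean levels of G2 and M phase genes, between -1.64 and -0.77 relative to the average cell on the log2 scale.

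The promoters of the lipid genes are shown first, with the letters that SREBP and its usual partners NF-Y and Sp1 bind. The genes were listed for a pathway that SREBP regulates, so these letters are not independent of the choice of genes. RefSeq windows running from 250 bases before to 50 bases after the gene start (build GRCm38.p6) were matched for 26 of the 33 genes. They were searched on both strands for TCACNCCAC, the letters of a sterol regulatory element, for CCAAT, the NF-Y box, and for GGGCGG, the Sp1 box. Of the 5 members whose levels followed the mean of the other members most closely (Srebf2, Acaca, Sqle, Fasn and Hmgcs1), the windows of Hmgcs1, Srebf2 and Fasn held at least 1 of these motifs, the window of Acaca at chr11:84195188-84195487 held none of them, and Sqle had no window. The 3 windows are given 5′ to 3′ on the strand of the gene, with the motif letters in capitals.
Hmgcs1, chr13:119690101-119690400, plus strand: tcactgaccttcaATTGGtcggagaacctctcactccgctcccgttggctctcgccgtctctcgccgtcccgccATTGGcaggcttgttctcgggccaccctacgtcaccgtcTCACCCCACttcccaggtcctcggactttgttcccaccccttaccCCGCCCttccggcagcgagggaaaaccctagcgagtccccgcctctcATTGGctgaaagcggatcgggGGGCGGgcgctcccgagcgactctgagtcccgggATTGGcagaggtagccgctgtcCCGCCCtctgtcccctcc
Srebf2, chr15:82147019-82147318, plus strand: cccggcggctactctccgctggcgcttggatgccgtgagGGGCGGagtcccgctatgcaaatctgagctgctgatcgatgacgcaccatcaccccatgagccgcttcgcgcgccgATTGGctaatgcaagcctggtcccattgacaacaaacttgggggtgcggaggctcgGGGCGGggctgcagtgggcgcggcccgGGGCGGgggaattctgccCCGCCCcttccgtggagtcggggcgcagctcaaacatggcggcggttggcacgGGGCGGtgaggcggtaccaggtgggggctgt
Fasn, chr11:120824498-120824797, minus strand: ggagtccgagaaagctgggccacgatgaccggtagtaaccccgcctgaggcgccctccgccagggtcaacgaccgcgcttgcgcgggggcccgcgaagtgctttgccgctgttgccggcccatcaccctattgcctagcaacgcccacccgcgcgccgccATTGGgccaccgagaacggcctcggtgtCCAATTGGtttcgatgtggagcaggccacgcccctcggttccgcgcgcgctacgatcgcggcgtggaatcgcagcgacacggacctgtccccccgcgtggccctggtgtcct
In the Hmgcs1 window, the element TCACCCCAC began 137 bases before the gene start, between NF-Y boxes (read as ATTGG on this strand) that began 176 and 45 bases before it, and 3 Sp1 boxes were also found. The Srebf2 window held 1 NF-Y box and 5 Sp1 boxes. The Fasn window held 3 NF-Y boxes, of which 2 overlapped in CCAATTGG.

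The sterol regulatory element was found in 1 of the 26 lipid genes (3.85%), Hmgcs1, against 1.44% of 27025 genes with a window. An NF-Y box was found in 21 of the 26 genes (80.8%), against 41.1% of all genes. An Sp1 box was found in 21 genes as well (80.8%), against 38.2% of all genes. The shares over all genes take in genes that were not measurable here, and a share among measurable genes was not computed. Counted over windows, of which some genes have several, the shares were 64.7% of 34 member windows against 37.4% of all windows for NF-Y, and 73.5% against 35.7% for Sp1. These matches describe letters in the windows and not bound sites. Only the exact letters given were searched, so elements that differ in a letter or lie outside the windows were not counted.

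Of the 32 genes, 21 (65.6%) were above the floor in at least 10 of the 20 cells, where the share over all genes was 39.2%. At least 3 cells passed it for 27 of them, and all 20 cells passed it only for Hmgcs1, Acly, Elovl5, Elovl6 and Scd2. By the probe sets used, Msmo1, Sc5d, Stard4 and Fads2 were above the floor in 0 cells and Cyp51 in 1 cell. Another probe set passed the floor in 4 cells for Msmo1 and in 2 cells for Sc5d. Per cell, 16 to 23 of the 32 genes were above the floor in the primitive endoderm-like cells, and 16 to 22 in the epiblast-like cells.

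**Figure D1:**
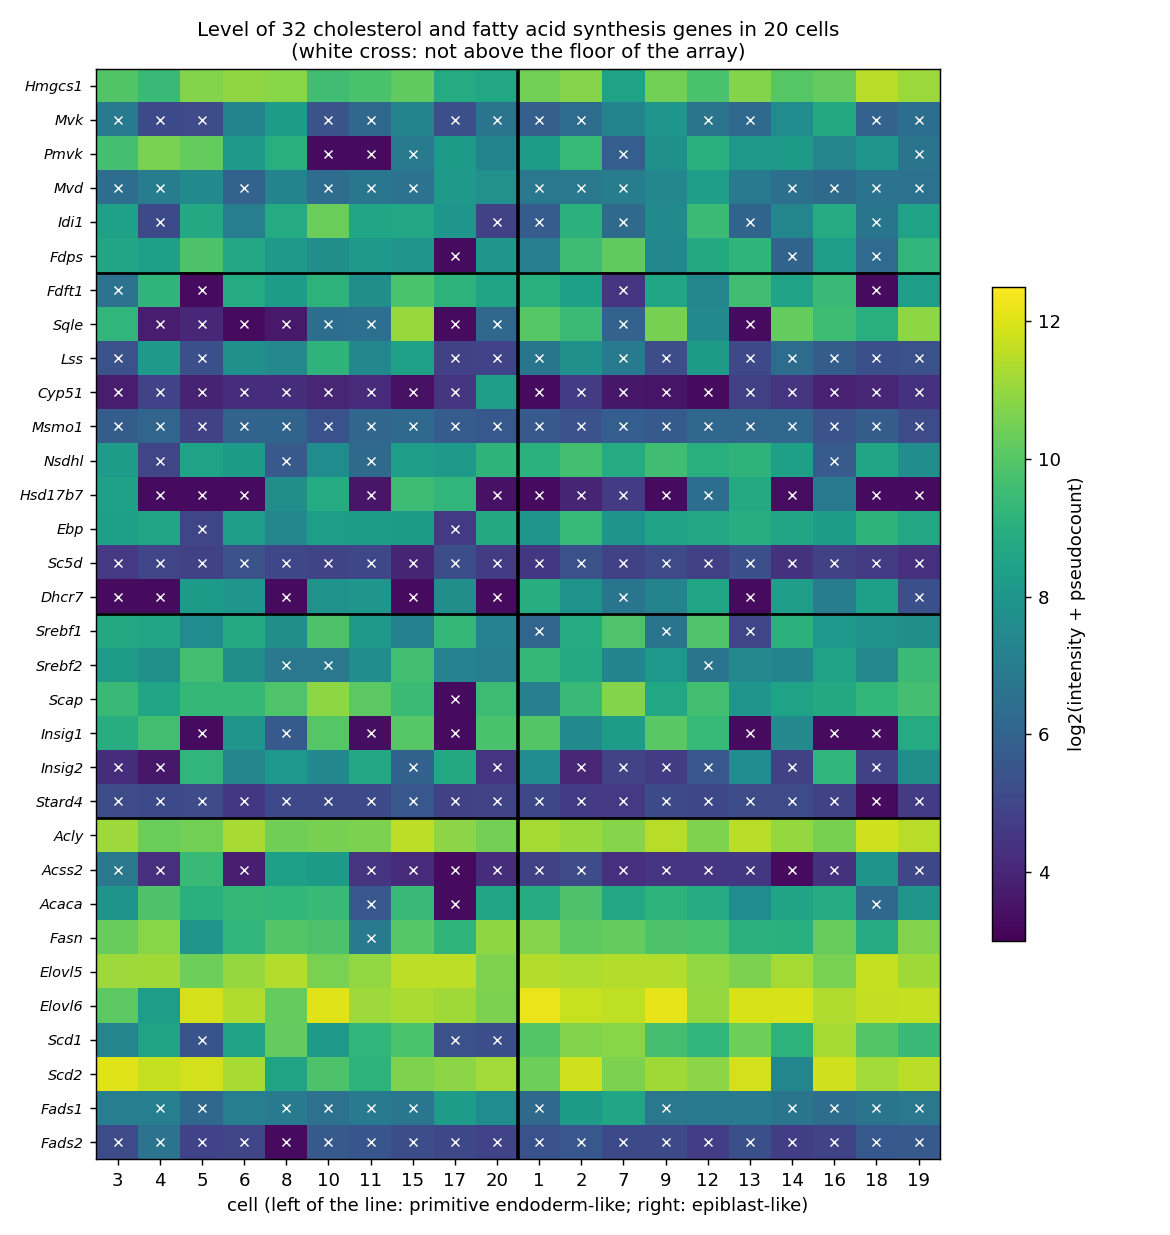
Level of each of the 32 genes (rows, grouped by mevalonate steps, squalene to cholesterol steps, sterol sensing and transfer, and fatty acid synthesis) in each of the 20 cells (columns), as log2(intensity + 8.77). White crosses mark values not above the floor of the array, which cover every cell of Msmo1, Sc5d, Stard4 and Fads2 and no cell of Hmgcs1, Acly, Elovl5, Elovl6 and Scd2.

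The mevalonate steps were measured by 6 genes. Hmgcs1, the synthase that makes HMG-CoA, ranged from 8.50 through a median of 10.21 to 11.49 and was above the floor in every cell. The mevalonate kinase Mvk ranged from 5.15 through 6.54 to 8.77 and was above it in 7 cells. Pmvk, the next kinase, ranged from 3.29 through 8.13 to 10.58 (15 cells). Cells 10 and 11 were at 3.29, and cells 7, 15 and 19 lay between 5.84 and 6.90, under their floors. Mvd, the decarboxylase that gives isopentenyl diphosphate, ranged from 6.00 through 6.80 to 8.29 (7 cells). The isomerase Idi1 ranged from 4.86 through 8.2 to 10.36 (14 cells). Fdps, which makes farnesyl diphosphate, ranged from 3.29 through 8.23 to 10.19, and 17 cells were above the floor.

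Of the 10 genes that lead from squalene to cholesterol, 5 passed the floor in 10 or more cells. Fdft1, the squalene synthase, ranged from 3.29 through a median of 8.51 to 9.82 (16 cells above the floor). The squalene epoxidase Sqle, a rate-limiting enzyme of the pathway, ranged from 3.29 through 7.0 to 11.03 (10 cells). Sqle had the largest spread of these 21 genes, with an SD over the cells of 2.90 as read and 1.56 with values raised to the floor. Lss, which closes the rings to lanosterol, ranged from 4.87 through 6.51 to 9.18 (8 cells). Cyp51, the lanosterol demethylase, ranged from 3.29 through 4.08 to 8.27, and only cell 20 was above the floor. Msmo1, a sterol methyl oxidase, stayed between 4.87 and 6.25 with a median of 5.80. The decarboxylating dehydrogenase Nsdhl ranged from 4.97 through 8.35 to 9.64 (16 cells). Hsd17b7, a ketosteroid reductase, ranged from 3.29 through 3.79 to 9.51 (7 cells). That median lies near the lowest value possible, so most cells lay at the lower end for it. Ebp, the sterol isomerase, ranged from 4.63 through 8.35 to 9.35 (18 cells). Sc5d, the next desaturase, stayed between 3.98 and 5.37 with a median of 4.88. Dhcr7, the reductase that gives cholesterol, ranged from 3.29 through 7.46 to 8.91 (12 cells).

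All 5 regulators of sterol sensing passed the floor in 10 or more cells. Srebf1, which encodes the SREBP known mainly for fatty acid genes, ranged from 4.98 through a median of 8.09 to 9.90 (17 cells). Srebf2, which encodes the SREBP known mainly for cholesterol genes, ranged from 6.65 through 7.68 to 9.63 (17 cells). The escort gene Scap ranged from 3.29 through 9.37 to 10.90, and 19 cells were above the floor. Only cell 17 was not. Insig1, itself a known SREBP target, ranged from 3.29 through 8.09 to 10.06 (13 cells). It was above the floor or near the bottom of the scale, with cells 5, 13, 16, 17 and 18 at 3.29, cell 11 at 3.36 and cell 8 at 5.69. Insig2 ranged from 3.62 through 6.62 to 9.26 (10 cells). Stard4, the sterol carrier, stayed between 3.29 and 5.59 with a median of 5.09.

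The fatty acid genes held 4 of the 5 members above the floor in every cell. Acly, which makes cytosolic acetyl-CoA from citrate, ranged from 10.38 through a median of 10.92 to 11.81. Acss2, which makes it from acetate, ranged from 3.29 through 4.49 to 9.44 and was above the floor in 4 cells. Acaca, the acetyl-CoA carboxylase, ranged from 3.29 through 8.86 to 9.86 (17 cells). Fasn, the fatty acid synthase, ranged from 6.87 through 9.91 to 10.90 (19 cells). These enzymes of the core pathway were thus measurable in nearly every cell, except for Acss2. The elongase Elovl5 ranged from 10.39 through 11.15 to 11.66 and had the smallest SD of the 5 (0.37). Elovl6, the elongase of saturated chains, ranged from 8.34 through 11.48 to 12.24. The stearoyl-CoA desaturase Scd1 ranged from 5.28 through 9.34 to 11.23 (17 cells). Its relative Scd2 ranged from 7.35 through 11.16 to 12.04, with only cell 14 under 8.56. Fads1 ranged from 6.18 through 6.89 to 8.64 (8 cells). Fads2, the other desaturase of polyunsaturated chains, stayed between 3.29 and 6.61 with a median of 5.16.

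The variance of each gene was compared with the trend of variance on mean level over the 9593 genes that passed the floor in 3 or more cells. The test used limma's squeezeVar and an F test, with Benjamini-Hochberg adjustment. It called 0 of 27 members and 0 of all genes (0% of 9593), and 26 genes but 0 members had an unadjusted p under 0.05. The lowest adjusted p of a member was 0.736. With 2.23 prior degrees of freedom the test also left uncalled Fgf4 and Nanog, markers whose clusters do not overlap, so the absence of calls says little about the members. After raising low values to the floor, the SD over the cells had a median of 0.90 over the 27 members, against 0.71 over all genes tested.

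As a whole the members showed little coordination over the cells. Pairwise Pearson correlations between the 21 genes that passed the floor in 10 or more cells, taking lower values as equal to the floor, had a median of 0.03 over 210 pairs, against 0.0015 over all pairs of 7139 genes passing the same filter. Correlations over the cells are given as descriptions with no test, since the cells share clusters, array floors and possibly embryos. A correlation of at least 0.5 was found in 4 pairs (1.9%), where the share over all pairs was 1.73%. The 5 genes above the floor in every cell had a median of 0.17 over 10 pairs, with 1 pair at 0.5 or more. All 2932 genes above the floor in every cell had a median of 0.0005, with 2.10% of pairs at 0.5 or more. By the same measure, 22 genes of the G2 and M phases had a median of 0.35 with 63 of 231 pairs at 0.5 or more, 10 epiblast markers a median of 0.52 and 14 primitive endoderm markers a median of 0.76. The largest block of the lipid pathway, the 9 sterol enzymes, had a median of 0.03 and 0 of 36 pairs at 0.5 or more.

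The highest pair was Sqle with Srebf2, the epoxidase with the regulator known mainly for cholesterol genes. Their correlation was 0.61, with 0.64 in the primitive endoderm-like cells and 0.67 in the epiblast-like cells. Only cells 3 and 15 of the primitive endoderm-like cells passed the floor for Sqle, so the value there rests on them. Leaving out any 1 cell gave 0.53 to 0.77. Cell 15 was highest for both genes (11.03 for Sqle and 9.63 for Srebf2). Cell 5 went the other way, with Srebf2 at 9.62 and Sqle at 4.05, not above the floor.

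Srebf2 was also the only member with a correlation of at least 0.5 with the mean of the other members (0.53, that is 1 of 21 genes or 4.76%, where 1.59% of 7118 other genes reached 0.5 with the mean of the members). It lay at 0.53 to 0.56 with the other pseudocounts, Spearman's rho, a common floor and deviations from cluster means. It lay at 0.34 without cells 4, 8, 17 and 20, at 0.38 with values as read and at 0.44 without quantile normalization. With the mean of all probe sets it was 0.23, where the filter left 18 members. It was 0.31 without cell 19 and 0.35 without cell 16, but there the filter left 19 members, and Sqle and Insig2 were no longer among them. Its partners after Sqle were Hmgcs1 (0.45), Scd2 (0.37) and Acly (0.31). With Srebf1, the other SREBP gene, it was negative (-0.48), and this held within the primitive endoderm-like (-0.45) and the epiblast-like cells (-0.51).

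Insig1 and Fasn had a correlation of 0.59, with 0.72 in primitive endoderm-like and 0.53 in epiblast-like cells. Insig1 with Acaca (0.47) and Acaca with Fasn (0.46) were just under the limit. Acly correlated with Sqle at 0.58, with 0.74 in primitive endoderm-like and 0.23 in epiblast-like cells. Acly with Hmgcs1, which is above the floor in every cell as well, gave 0.56, with 0.26 in primitive endoderm-like and 0.73 in epiblast-like cells. Whether these values differ between the clusters was not tested, and for Sqle only 2 primitive endoderm-like cells passed the floor.

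The lowest correlations among the members were those of Insig2. They were -0.64 with Ebp, -0.52 with Nsdhl and -0.52 with Insig1, the gene of the other INSIG protein. The SD of the correlations was 0.25 over the 210 member pairs and 0.24 over all pairs. The share of all pairs as low as these was not counted. With Ebp the value was -0.83 in primitive endoderm-like and -0.32 in epiblast-like cells, and with Nsdhl it was -0.20 and -0.74. Without cells 4, 8, 17 and 20 it was -0.55 with Ebp, -0.58 with Nsdhl and -0.42 with Insig1. Both INSIG genes were above the floor in 4 cells, Insig1 alone in 9, Insig2 alone in 6 and neither in 1 cell. In the primitive endoderm-like cells the correlation of the INSIG genes was -0.84, and in the epiblast-like cells it was -0.26. Insig2 was represented by 1 of 3 probe sets, of which the others correlated with it at 0.87 and -0.15.

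**Figure D2:**
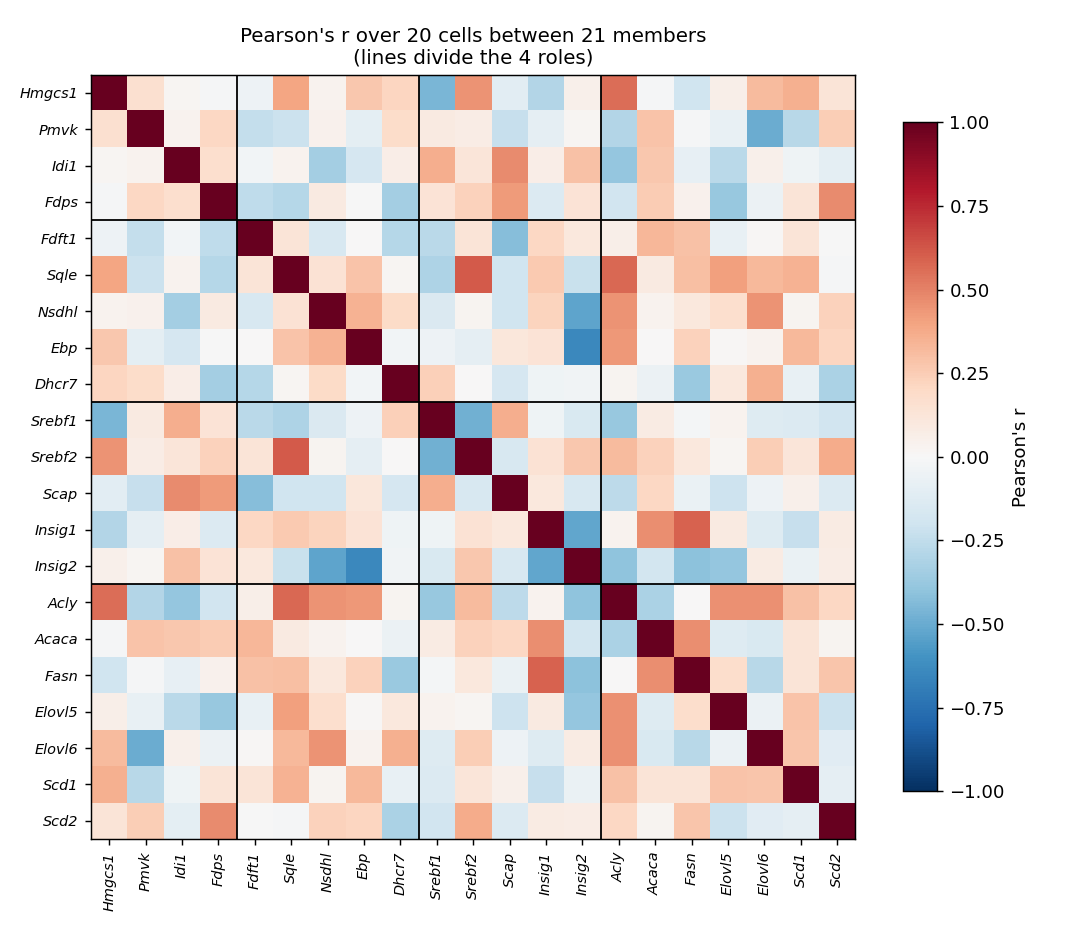
Pearson's r over the 20 cells between the 21 members above the floor in at least 10 cells (values raised to the floor), on a colour scale from -1 to 1, with lines between the 4 roles. Few squares off the diagonal are deep red: Sqle with Srebf2 is at 0.61, and Insig2 with Ebp is the deepest blue at -0.64.

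Without cells 4, 8, 17 and 20, 10 of 190 pairs (5.26%) reached 0.5, where the share over all pairs was 2.91%, and Acaca and Fasn were then the members at 0.5 or more with the mean of the others.

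Averaged over enzymes, the sterol and fatty acid branches moved in the same direction. The mean of the 9 sterol enzymes and the mean of the 7 fatty acid enzymes, each gene centred over the cells, correlated at 0.58 (Spearman 0.51, 20 cells). The correlation was 0.65 without the 2 cells farthest from the median of the sterol mean, 0.48 without cells 4, 8, 17 and 20, 0.65 within primitive endoderm-like cells and 0.32 within epiblast-like cells. Cell 2 was highest in both (0.86 and 0.71), and cells 11, 17 and 20 were low in both. Cell 7 was lowest for the sterol mean (-0.55) and above the average for the fatty acid mean (0.35). How strongly the means of other gene sets of these sizes correlate was not tested. For single enzymes, the 63 pairs of a sterol with a fatty acid enzyme had a median of 0.06, against 0.0015 over all pairs. Of these 63 pairs, 2 were at 0.5 or more, where the share over all pairs was 1.73%.

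**Figure D3:**
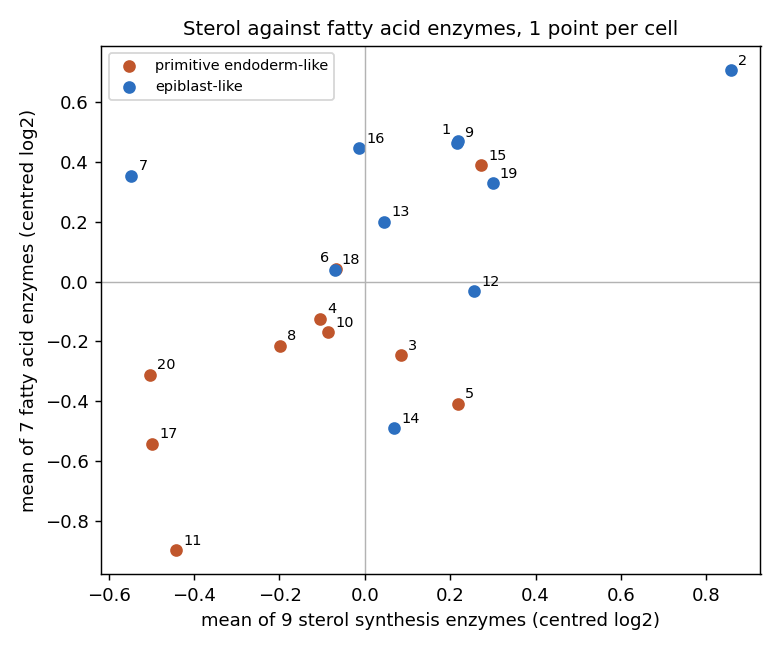
Mean centred log2 level of 9 sterol synthesis enzymes (horizontal) against that of 7 fatty acid enzymes (vertical), 1 numbered point per cell, primitive endoderm-like in orange and epiblast-like in blue. The points run from cells 11, 17 and 20 at the lower left to cell 2 at the upper right (r = 0.58).

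The mean over all 21 members also moved with the mean of the G2 and M phase genes, at 0.44 over the 20 cells. It was 0.55 in primitive endoderm-like and -0.15 in epiblast-like cells, and 0.15 without cells 4, 8, 17 and 20. It moved with the mean of the epiblast markers as well, at 0.44, with 0.32 in primitive endoderm-like and 0.02 in epiblast-like cells, and with that of the primitive endoderm markers at -0.38, with -0.36 in primitive endoderm-like and 0.37 in epiblast-like cells. With the mean correlation of a cell with the other cells it was 0.36, and -0.06 without cells 4, 8, 17 and 20. The part of each of these in the correlations above was not tested.

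Between the clusters, the middle of the lipid genes lay near 0 and 2 genes differed by more than 2-fold. The clusters hold cells with no named embryo, so differences between them carry no test, and a difference of at least 1 on the log2 scale (2-fold) is called. The median difference, primitive endoderm-like minus epiblast-like mean, was -0.07 over the 27 members and 0.03 over all 9593 genes. At least 1 higher in primitive endoderm-like cells were 0 of 27 members, where the share over all genes was 3.05%. At least 1 higher in epiblast-like cells were 2 of 27 (7.41%), Sqle and Scd1, against 3.27% of all genes. The clusters overlapped for every one of the 27 members, while 0.271% of all genes did not overlap.

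Scd1 ranged from 5.28 through a median of 8.30 to 10.21 in primitive endoderm-like cells and from 9.13 through 9.96 to 11.23 in epiblast-like cells. The floor was passed by 7 primitive endoderm-like cells and all 10 epiblast-like cells. Cells 5, 17 and 20 were not above the floor, while primitive endoderm-like cell 8, at 10.21, was above most epiblast-like cells. With values raised to the floor it averaged 8.30 ± 1.18 in primitive endoderm-like and 10.05 ± 0.71 in epiblast-like cells (SD, n = 10 each), a difference of -1.76 or 3.39-fold. A dimmer probe set of Scd1, above the floor in 12 cells, differed by -0.05 and correlated with the brighter at 0.12. The mean of all probe sets gave -0.87, and the floor at the 99th percentile gave -1.03.

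Among primitive endoderm-like cells only 2 passed the floor for Sqle, cell 3 at 9.27 and cell 15 at 11.03, against 8 of the epiblast-like cells. It ranged from 3.29 through a median of 5.11 to 11.03 in primitive endoderm-like cells and from 3.29 through 9.52 to 10.90 in epiblast-like cells. The highest value of all was thus in a primitive endoderm-like cell, and epiblast-like cells 7 and 13 were not above the floor. The raised means were 7.72 ± 1.35 in primitive endoderm-like and 9.12 ± 1.49 in epiblast-like cells (SD, n = 10 each), a difference of -1.41 or 2.65-fold. It was -0.99 without cells 4, 8, 17 and 20, -0.39 with the floor at the 99th percentile, and -2.92 with values as read. Sqle had 1 probe set.

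Among the genes above the floor in 10 or more cells, Elovl6 and Nsdhl came next and stayed under 2-fold. Elovl6 ranged from 8.34 through a median of 11.12 to 12.05 in primitive endoderm-like cells and from 10.98 through 11.69 to 12.24 in epiblast-like cells. Only cell 4 was under 10. The difference was -0.89, its other probe sets gave -0.40 and -0.97, and without cells 4, 8, 17 and 20 it was -0.41. Nsdhl ranged from 4.97 through 8.15 to 9.18 in primitive endoderm-like cells, of which 7 were above the floor, and from 5.74 through 8.89 to 9.64 in epiblast-like cells, of which 9 were. Its difference was -0.71.

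Scd2 and Insig1, which with Sqle and Scd1 had the largest SD of values raised to the floor, differed by less than 0.5 between the clusters. Scd2 ranged from 8.56 through a median of 11.01 to 12.04 in primitive endoderm-like cells and from 7.35 through 11.17 to 11.86 in epiblast-like cells, a difference of -0.15. For Insig1, 6 primitive endoderm-like and 7 epiblast-like cells passed the floor, with a difference of 0.31.

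**Figure D4:**
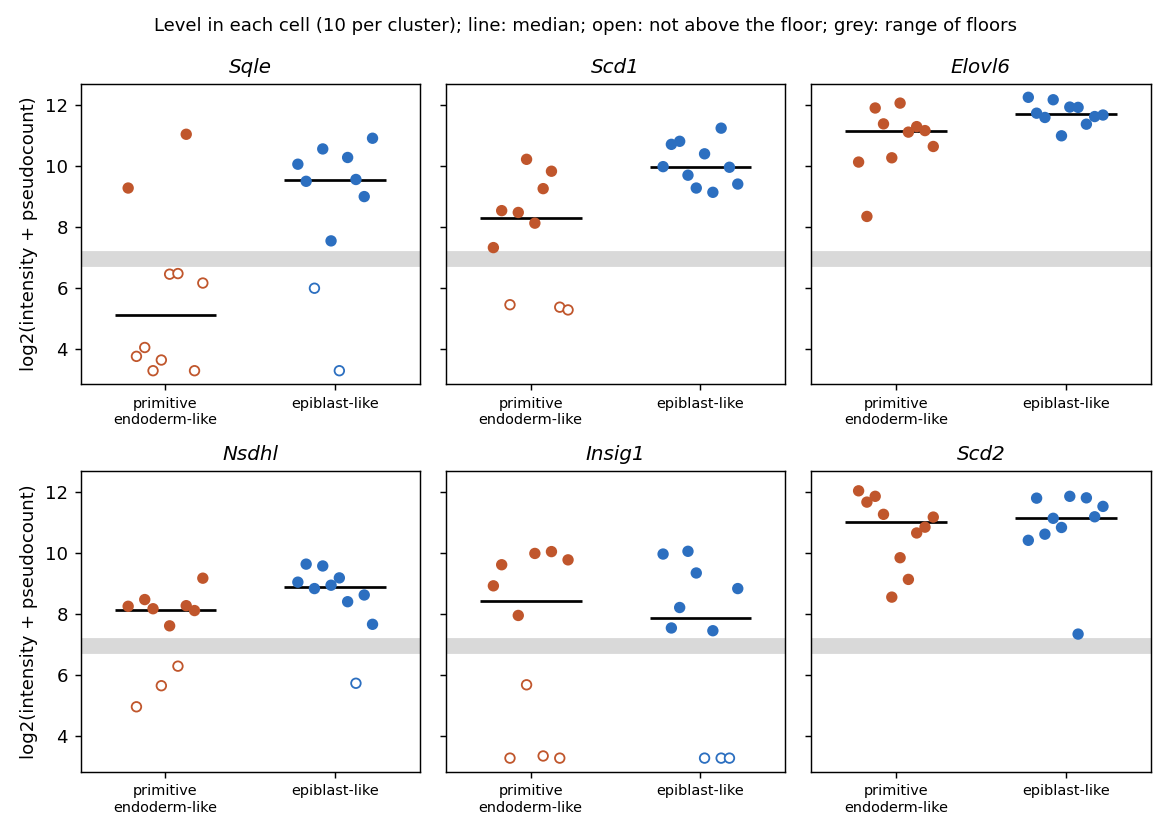
Level of Sqle, Scd1, Elovl6, Nsdhl, Insig1 and Scd2 in each cell, as log2(intensity + 8.77), with primitive endoderm-like cells left and epiblast-like cells right (10 each). Lines are medians as read, open points are not above the floor and the grey band is the range of the 20 floors: 8 of 10 primitive endoderm-like cells are open for Sqle, against 2 of 10 epiblast-like cells.

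By role, the median difference was 0.07 for the 6 mevalonate genes, -0.21 for 7 of the 10 genes from squalene to cholesterol, 0.31 for the 5 regulators and -0.15 for 9 of the 10 fatty acid genes, leaving out those that passed the floor in fewer than 3 cells. The floors were 0.17 higher on average in primitive endoderm-like arrays, and a gene under the floor everywhere therefore gave 0.17. Hsd17b7 had the largest difference toward the primitive endoderm-like cells, at 0.78, with 5 primitive endoderm-like and 2 epiblast-like cells above the floor. It was 0.14 with the pseudocount at the 10th percentile and 0.13 with the mean of all probe sets, and another probe set above the floor in 7 cells gave 0.13. Ebp, at -0.56, was lower in primitive endoderm-like cells, and Lss, at 0.54, was higher there. Another probe set of Lss, above the floor in 3 cells, gave 0.15 and correlated with the one used at -0.18.

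**Figure D5:**
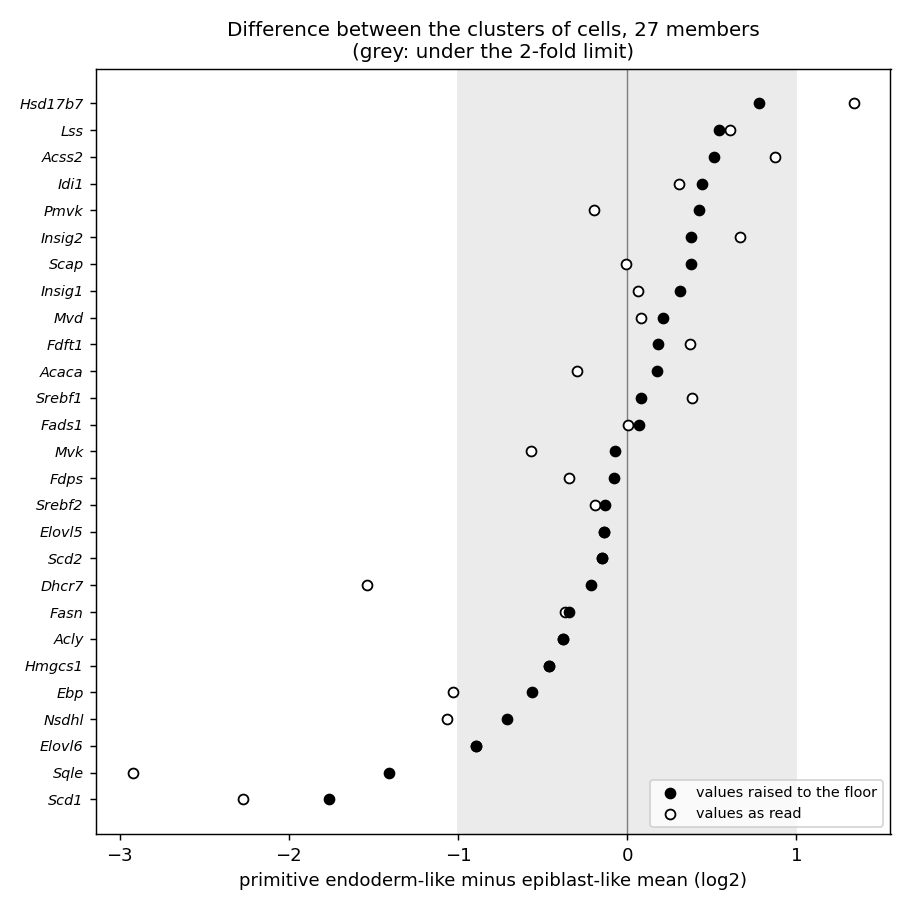
Difference of the 27 members above the floor in at least 3 cells, as primitive endoderm-like minus epiblast-like mean on the log2 scale, with values raised to the floor (filled) or as read (open). The grey band holds differences under 2-fold: filled points of Scd1 (-1.76) and Sqle (-1.41) lie outside it, and as read Hsd17b7, Ebp, Nsdhl and Dhcr7 do too.

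Genes of the G2 and M phases moved the same way as Sqle and Scd1: 8 of 22 were at least 1 higher in epiblast-like cells and 0 in primitive endoderm-like cells, and their summed intensity ranged from 10483 to 44382 in primitive endoderm-like and from 24309 to 49553 in epiblast-like cells. Their part in the differences of Sqle and Scd1 was not tested. Of the trophectoderm markers, 1 of 7 that passed the floor in 3 or more cells, Tfap2c, was at least 1 higher in epiblast-like cells. The summed intensity of the 13 markers ranged from 13897 to 16778 in primitive endoderm-like and from 13146 to 16637 in epiblast-like cells. Most of it came from Hand1, whose probe set was not tested for specificity.

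Other genes of lipid metabolism were counted by list, and 0 of them were called in the variance test. Of 3 measured genes of other sterol steps, 0 differed by 1 or more. The lamin B receptor gene Lbr, whose product is also a sterol reductase, was above the floor in all 20 cells, with a median of 10.22 and a difference of 0.01. Of 8 measurable genes of sterol uptake, traffic and storage (3 or more cells above the floor), 1 was at least 1 higher in epiblast-like cells, Abcg1, a sterol exporter named here after its values were seen. It passed the floor in 1 primitive endoderm-like cell and 6 epiblast-like cells.

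Of 6 measurable genes of SREBP cleavage and other regulation, 2 were at least 1 higher in primitive endoderm-like cells, where the share over all genes was 3.05%. Mbtps2, which encodes the protease that makes the second cut in SREBP, averaged 9.54 ± 1.14 in primitive endoderm-like and 8.42 ± 1.05 in epiblast-like cells (SD, n = 10 each). Erlin1, an endoplasmic reticulum protein that binds the SREBP complex, averaged 9.02 ± 1.67 in primitive endoderm-like and 7.95 ± 1.11 in epiblast-like cells. Both clusters overlapped for each of these genes. Mbtps1, which encodes the protease of the first cut, was above the floor in every cell and differed by -0.38.

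Of 17 further measurable genes of fatty acid and glycerolipid synthesis, 1 was at least 1 higher in each direction. Acsl5, an acyl-CoA synthetase, averaged 8.99 ± 1.31 in primitive endoderm-like and 7.58 ± 0.93 in epiblast-like cells (SD, n = 10 each). Agpat2, an acyltransferase that makes phosphatidic acid, averaged 10.10 ± 0.89 in primitive endoderm-like and 11.13 ± 0.52 in epiblast-like cells, and was above the floor in all 20. Of 11 measurable genes of fatty acid oxidation, only Cpt2, the inner carnitine palmitoyltransferase, passed the limit, with 9.05 ± 0.79 in primitive endoderm-like and 7.90 ± 0.98 in epiblast-like cells. In these 5 pathway lists, 0 genes had a correlation of at least 0.5 with the mean of the members.

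Outside all lists, the 10 genes most like the mean of the 21 members were Fntb (r = 0.71 over 20 cells), Myo1c (0.69), Mtch2 (0.67), Zfp707, Kifc3, Papolg, Fancm, Txlng, Traf7 and Urm1 (0.64). Within the clusters, as deviations from the mean of the cluster, these correlations were 0.57 to 0.75. The lowest were B230308N11Rik (-0.73), Rdx (-0.71), Gnb2 (-0.70), Ptpn2 (-0.69) and Frg1 (-0.68). Fntb itself was 1.10 lower in primitive endoderm-like than in epiblast-like cells on the log2 scale.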

How the data were processed

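Cells were lysed, the cDNA was made and amplified from the crude lysate by PCR, and cRNA was labelled with biotin, per the labels' protocols. The authors deposited intensity per probe set on a linear scale (1 to 26616); the summarising software is not given in the sources used here. Of 45101 probe sets, 34958 had 1 gene symbol in GEO's platform annotation, 932 several and 9147 none (unnamed here). The number of arrays limits the precision.

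Computed here with Python 3.11.15 (numpy 2.4.6, scipy 1.17.1, pandas 2.3.3) and R 4.3.3 (limma 3.58.1) were the quantile normalization, log2(intensity + 8.77, the median 25th percentile), the floors, Ward clustering on 500 genes outside all lists with the largest variance ratio, and the values above. The scripts were tested on simulated data. Members and lists were chosen with earlier results of these data known. Named genes are every member, pathway genes differing by at least 1 and above the floor in at least 10 cells, and the 10 highest and 5 lowest correlates. Some genes of the rule are not reported here. Per-cell detail goes to the 4 members with the largest difference and the 4 with the largest SD (values raised to the floor), among members above the floor in at least 10 cells. Lbr, Mbtps1 and Abcg1 were added after their values were seen. Alternatives changed normalization, pseudocount, probe sets, floor, clustering, correlation and the cells included.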

Additional observations from a re-analysis of the deposited data

How the results depend on the processing

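Under the other settings, the 21 members above the floor in at least 10 cells became 16 to 21, the variance test called 0 members each time, and the median pairwise correlation stayed between 0.02 and 0.17. The count of members at 0.5 or more with the mean of the others, 1 as reported, was 0 with deposited values without quantile normalization, 0 with the mean of all probe sets, 0 with the floor at the 99th percentile, and 2 without cells 4, 8, 17 and 20, with values as read, with deviations from cluster means and with Spearman's rho. Members at least 1 higher in epiblast-like cells, 2 as reported, were 1 with the 99th percentile floor (Scd1), 1 without cells 4, 8, 17 and 20 (Scd1), and 5 with values as read. With the mean of all probe sets they were Sqle and Elovl6. Members at least 1 higher in primitive endoderm-like cells, 0 as reported, were 1 with values as read (Hsd17b7). The cause was not tested. Over all genes, the counts with values as read were 768 higher in primitive endoderm-like and 1116 in epiblast-like cells, against 293 and 314 as reported, and 206 and 102 with the 99th percentile floor. Pairs of members at 0.5 or more, 4 as reported, numbered 11 with values as read (5.24%), where the share over all pairs was 2.18%. They numbered 6 of 120 (5%) with the 99th percentile floor, where that share was 2.19%. The median difference over the members, -0.07, was 0.16 with the 99th percentile floor, where that over all genes was 0.20. It was 0.02 without cell 19 and 0.02 without cell 16. Cell 6 changed cluster with 1000 clustering genes or the 99th percentile floor, and cell 16 with the pseudocount at the 50th percentile. A floor common to all arrays, members above the floor in every cell only, and raised values in the variance test were alternatives chosen after seeing the data, and with the common floor Sqle differed by -1.39 and Scd1 by -1.73. Signal over background limits Mvk, Mvd, Lss, Hsd17b7, Acss2 and Fads1, which were above the floor in 4 to 8 cells. No paired analysis was possible because the labels do not give the embryo of each cell.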

Other observations

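Probe sets of 1 lipid gene did not always give the same pattern over the cells. For Hmgcs1, the probe set used had a correlation of 0.998 with the next brightest and 0.91 with another, and the 3 differed between primitive endoderm-like and epiblast-like cells by -0.46, -0.47 and -0.49. A dimmer probe set of Hmgcs1, above the floor in 17 cells, correlated at 0.62 and differed by 0.07, and the dimmest, above it in 2 cells, correlated at -0.22. For Acly, 2 other probe sets above the floor in all 20 cells correlated with the one used at 0.91 and 0.92, while 3 more were above the floor in 0 cells. The Idi1 probe sets correlated at 0.91. For Fdft1, 1 other probe set correlated at 0.97, while 2 more were above the floor in 0 cells. The Srebf2 probe sets correlated at 0.49, with the dimmer above the floor in 9 cells. For Msmo1, a probe set with nearly the same mean as the one used was above the floor in 4 cells, against 0 cells for the one used.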
